A study of Mus musculus with 12 samples.

Results

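The genes described here are *Sox2*, the long noncoding transcript *Sox2ot* in which it lies, and 6 further genes of mouse chromosome 3, *Pex5l*, *Ccdc39*, *Slc7a11*, *Slc2a2*, *D3Ertd751e* and *Pcdh10*. These 8 genes, of 28686 symbols in the count table, were chosen from the difference between mutants and controls in these libraries, so that their fold changes are given as a description without a test. RNA-seq was performed at P6 on dissected cochlear tissue, which the paper's results name as sensory epithelium. It came from 6 Sox2CreER/+ Jag1fl/fl mutants and 6 Sox2+/+ littermate controls, which carried Jag1+/fl or Jag1fl/fl. All pups, controls included, received tamoxifen on P0 and P1, and all libraries carry the strain label C57BL/6;129SV, while the methods give a C57bl6/J background for the *Sox2-CreERT2* line and FVB/n for the *Jag1* flox line. The CreER recombinase is under the control of the *Sox2* locus, which drives it in all supporting cells, and only mutants carried it. Deletion of *Jag1*, the CreER allele at *Sox2* and any chromosome 3 alleles inherited along with it came together in every mutant, and their effects on these 8 genes cannot be told apart.

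SOX2 is an HMG-box transcription factor that sets aside the prosensory cells of the embryonic cochlea and stays on in supporting cells after hair cells have formed. The protein is dose-sensitive in many tissues, and its gene sits alone in a long stretch of chromosome 3 whose enhancers act over large distances. *Sox2ot* is transcribed across this stretch on the same strand, with *Sox2* inside its transcription unit, and is best known from neural tissue. A knock-in allele at such a locus is passed on together with the alleles of the genes that flank it.

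*Sox2* was at chr3:34650405-34652461 on the plus strand (GENCODE M21, GRCm38), inside the *Sox2ot* unit at chr3:34104270-34682619. The single exon of *Sox2*, 2057 bases, shared 0 bases with the 11594 exon bases of *Sox2ot*, so reads on mature transcripts of these genes fall on different positions. *Ccdc39* at chr3:33812362-33844310 and *Pex5l* at chr3:32949408-33143247, both on the minus strand, lay 0.82 and 1.61 Mb from *Sox2*, measured between gene midpoints. *Slc2a2* at chr3:28697903-28731359 lay 5.94 Mb away on the same side. On the other side, *D3Ertd751e* at chr3:41742611-41803320 lay 7.12 Mb, *Pcdh10* at chr3:45378398-45435623 lay 10.8 Mb and *Slc7a11* at chr3:49892526-50443614, on the minus strand, lay 15.5 Mb from *Sox2*. Between *Slc2a2* and *Slc7a11*, a span of 21.7 Mb, 86 genes had enough counts to be tested, and 78 of these were not among the 8.

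The sequence just before the RefSeq start site (GRCm38.p6) was taken for 6 of the 8 genes, 250 bases each. The RefSeq start of *Sox2* lies 410 bases upstream of the GENCODE start given above, so its window ends before that start, while for the other 5 genes both starts lie within 4 bases of each other. Those of *Sox2* (chr3:34649745-34649994, plus strand), *Slc7a11* (chr3:50443614-50443863, minus strand), *Ccdc39* (chr3:33844311-33844560, minus strand) and *Slc2a2* (chr3:28697653-28697902, plus strand) are shown because they are the pair of genes that were lower in mutants and, among the genes that were higher, those with the smallest and the largest fold change that have an entry. Capitals mark the core SOX motif ACAAAG, the octamer-like ATGCAAA bound by POU factors, the RBPJ core TGGGAA and CCAAT, on either strand, and no marked motif overlaps another.
Sox2: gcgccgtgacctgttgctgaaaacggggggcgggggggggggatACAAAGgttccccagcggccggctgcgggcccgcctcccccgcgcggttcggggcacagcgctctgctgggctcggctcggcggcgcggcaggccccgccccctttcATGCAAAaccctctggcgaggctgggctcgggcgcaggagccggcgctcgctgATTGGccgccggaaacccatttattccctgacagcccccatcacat
Slc7a11: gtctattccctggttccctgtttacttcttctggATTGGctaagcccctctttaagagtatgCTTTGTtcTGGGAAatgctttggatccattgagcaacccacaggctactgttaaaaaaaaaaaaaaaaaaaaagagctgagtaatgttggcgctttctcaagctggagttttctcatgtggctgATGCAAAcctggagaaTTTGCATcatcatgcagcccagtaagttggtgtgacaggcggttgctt
Ccdc39: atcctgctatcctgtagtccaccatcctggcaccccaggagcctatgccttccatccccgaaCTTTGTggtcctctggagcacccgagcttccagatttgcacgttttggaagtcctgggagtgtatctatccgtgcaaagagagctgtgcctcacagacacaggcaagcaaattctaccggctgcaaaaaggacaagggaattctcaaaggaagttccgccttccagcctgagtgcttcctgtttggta
Slc2a2: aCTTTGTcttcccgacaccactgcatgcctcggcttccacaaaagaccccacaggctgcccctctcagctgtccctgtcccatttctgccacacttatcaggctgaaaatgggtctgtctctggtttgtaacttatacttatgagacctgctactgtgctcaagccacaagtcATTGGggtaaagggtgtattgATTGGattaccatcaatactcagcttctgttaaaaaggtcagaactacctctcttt

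The core SOX motif was in the windows of 4 of the 6 genes, the 4 printed, and in 16.5% of the windows of the same length at 27025 genes. The octamer-like motif was in those of *Sox2* and *Slc7a11* and in 4.06% of all windows. The RBPJ core, the sequence through which Notch acts on its targets, was in those of *Slc7a11* and *Pcdh10* and in 21.5% of all windows. CCAAT was in 5 of the 6, all but *Ccdc39*, and in 34.5% of all. These matches are a description of the letters, and a window without a motif says nothing on binding elsewhere. A link between a motif and the direction of change was not tested.

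The 12 libraries held between 28498549 and 36134983 counts on genes. *Jag1*, on chromosome 2, was between 83.0 and 118 CPM in controls and between 24.2 and 42.9 CPM in mutants, a log2 change (log2 of the fitted fold, mutant over control) of -1.48 (standard error, SE, 0.13, adjusted p = 0.000258 in edgeR's quasi-likelihood test). Every mutant was below every control at the deleted gene. Hair cell markers were present, with *Myo6* at 318 CPM on average in controls, as were supporting cell markers, with *Gjb2* at 1320 CPM. CPM are the counts of a gene scaled to the total of its library with TMM factors. All 8 genes passed the filter of a mean count of at least 5, which left 18459 genes in the test.

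*Sox2* was the most abundant of the 8 per length and *Slc2a2* the least. Per kilobase of exon, controls averaged 16.5 CPM for *Sox2* and 5.38 CPM for *Slc7a11*, followed by 0.803 for *D3Ertd751e*, 0.782 for *Ccdc39*, 0.430 for *Pex5l*, 0.268 for *Pcdh10*, 0.170 for *Sox2ot* and 0.0060 for *Slc2a2*. In this order the ranges of the 6 controls overlapped between *D3Ertd751e* and *Ccdc39*, between *Pex5l* and *Pcdh10* and between *Pcdh10* and *Sox2ot*, and the other neighbours were apart. The plot of levels by library shows all values.

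**Figure D1:**
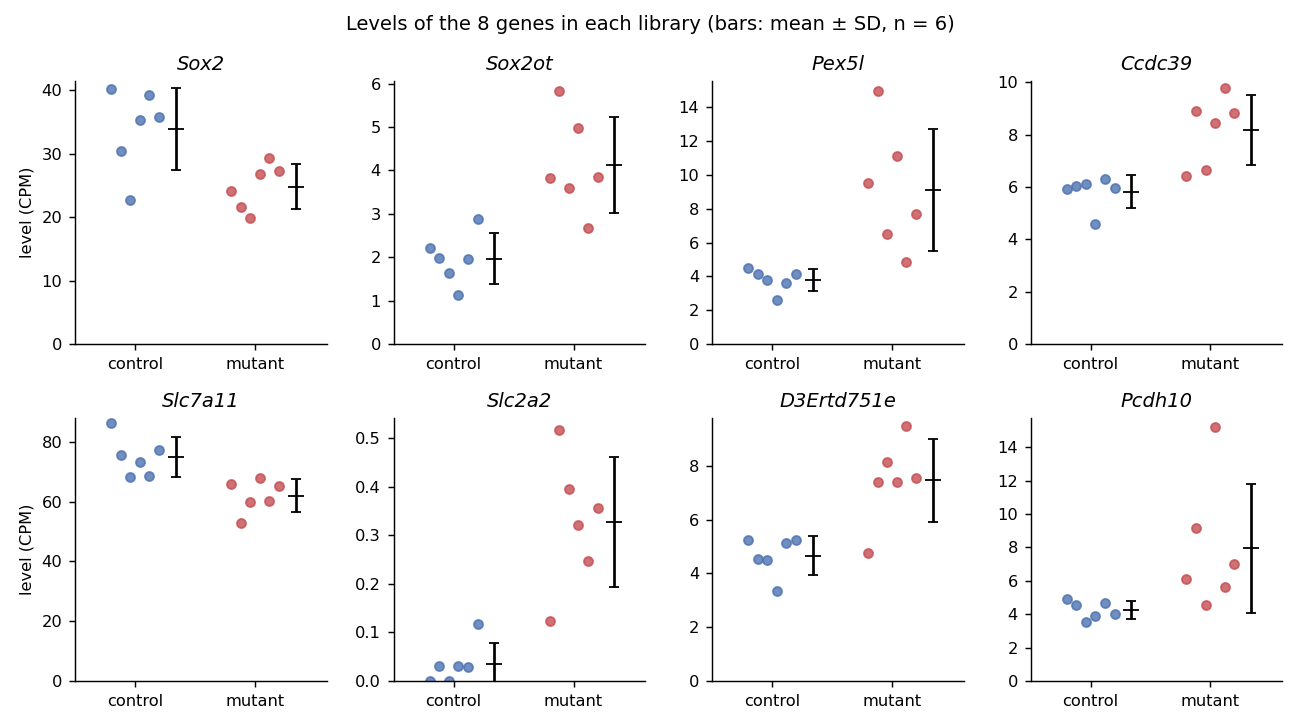
Level of each of the 8 genes in CPM (vertical axis, from 0) in the 6 control (blue) and 6 mutant (red) libraries, with the mean and SD of each group in black beside the points; the lower SD bar of *Slc2a2* in controls is cut at 0. *Sox2* and *Slc7a11* lie lower in mutants, and the remaining 6 genes lie higher.

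*Sox2* RNA was lower in mutants than in most controls, to 73.2% of the control mean, whereas the transcript it lies in was higher. *Sox2* was at 22.7, 35.5 and 40.2 CPM (lowest, median, highest of 6) in controls and at 19.9, 25.4 and 29.4 CPM in mutants. Control 3 was the lowest control and lay among the mutants, so the groups overlapped, and 6 of 6 mutants were below the control median. The means were 33.9 ± 6.49 CPM (SD, n = 6) for controls and 24.8 ± 3.60 CPM (SD, n = 6) for mutants, a log2 change of -0.45 (SE 0.13).

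*Sox2ot* was at 1.12, 1.98 and 2.88 CPM (lowest, median, highest) in controls and at 2.68, 3.85 and 5.82 CPM in mutants. Mutant 5 lay within the control range and 5 of 6 mutants lay above the highest control. The means were 1.97 ± 0.583 and 4.13 ± 1.11 CPM (SD over n = 6 each), with a log2 change of 1.06 (SE 0.22). Within a library, the count of *Sox2* was 12.4 to 31.4 times that of *Sox2ot* in controls, with a median of 16.7. In mutants it was 3.71 to 10.96 times, with a median of 5.92, and the groups did not overlap. This ratio needs no scaling between libraries. Both of its genes were chosen from this contrast and differ in opposite directions, so the separation of the groups adds nothing to their single values.

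The 2 genes nearest to the *Sox2ot* unit among the 8 were both higher in mutants. *Pex5l* encodes TRIP8b, an accessory subunit that controls the traffic and gating of HCN channels in neurons. It was at 2.62, 3.95 and 4.53 CPM in controls against 4.84, 8.63 and 14.9 CPM in mutants, and every mutant lay above every control. Its means were 3.80 ± 0.665 and 9.10 ± 3.60 CPM (SD over n = 6 each), a log2 change of 1.26 (SE 0.23). The mutants spanned 3.08-fold, from mutant 5 to mutant 2, and the controls 1.73-fold. The antisense gene *Gm37459* overlaps 3.84% of the *Pex5l* exon bases and had a log2 change of 1.18 (SE 0.46, adjusted p = 0.334 in edgeR). It was weakly expressed, with means of 0.195 CPM in controls and 0.446 CPM in mutants.

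*Ccdc39* encodes a coiled-coil protein that, with CCDC40, sets the repeat along the axoneme on which inner dynein arms of motile cilia are placed. It was at 4.58, 6.01 and 6.30 CPM in controls against 6.41, 8.64 and 9.79 CPM in mutants, again without overlap. The means were 5.82 ± 0.624 and 8.17 ± 1.34 CPM (SD over n = 6 each), a log2 change of 0.49 (SE 0.12). Of its exon bases, 16.9% overlap *Ttc14* on the other strand, and whether reads were counted by strand is not given in the sources used here. *Ttc14* averaged 66.97 ± 13.3 CPM (SD, n = 6) for controls and 80.4 ± 20.3 CPM (SD, n = 6) for mutants, a log2 change of 0.26 (SE 0.17, adjusted p = 0.690 in edgeR), so a share of *Ccdc39* reads cannot be told apart from reads of that gene.

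The membrane transporters among the 8 differed in opposite directions. *Slc7a11* encodes xCT, which imports cystine for glutathione synthesis in exchange for glutamate. It was at 68.2, 74.5 and 86.4 CPM in controls against 52.8, 62.8 and 68.0 CPM in mutants, so that 6 of 6 mutants were below the lowest control, the closest by a narrow margin. The means were 74.9 ± 6.73 and 62.0 ± 5.57 CPM (SD over n = 6 each), a log2 change of -0.27 (SE 0.07), the smallest change of the 8.

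*Slc2a2* encodes GLUT2, the low-affinity glucose transporter known from liver and pancreatic beta cells. It was barely detected. Its counts were 0 to 4 per library in controls, 7 in all, and 4 to 17 in mutants, 67 in all. The highest control and the lowest mutant held 4 counts each and differed in CPM only by their scaling. The 2 controls at 0 counts allow a level of up to 0.103 and 0.107 CPM, where a count of 0 is taken to allow 3 counts. Relative to depth, mutants held 8.94 times the reads of controls, with a 95% interval of 4.11 to 23.1 (exact Clopper-Pearson, which covers counting error only). It passed the filter on mean count only through the mutants, and the fitted log2 change of 3.05 (SE 0.55) depends on the handling of low counts.

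Of the genes farther from *Sox2*, *D3Ertd751e*, an uncharacterised protein-coding gene, was at 3.33, 4.85 and 5.24 CPM in controls against 4.75, 7.49 and 9.49 CPM in mutants. Mutant 1 lay among the controls and the remaining 5 mutants above them. The means were 4.67 ± 0.733 and 7.47 ± 1.55 CPM (SD over n = 6 each), a log2 change of 0.68 (SE 0.15). Its start lies head to head with that of *Sclt1*, a gene for a centriole appendage protein, which was at 16.4 ± 1.06 CPM in controls against 15.4 ± 1.39 CPM in mutants (SD over n = 6 each), a log2 change of -0.09 (SE 0.08, adjusted p = 0.807 in edgeR).

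*Pcdh10*, a delta protocadherin that mediates homophilic adhesion between neurons, was at 3.54, 4.27 and 4.88 CPM in controls against 4.58, 6.55 and 15.2 CPM in mutants. Mutant 4 stood far above the others and mutant 3 lay among the controls. The means were 4.25 ± 0.524 and 7.95 ± 3.87 CPM (SD over n = 6 each), and the log2 change of 0.90 (SE 0.24) was 0.61 without mutant 4. The noncoding gene *2610316D01Rik*, which starts beside *Pcdh10* on the other strand, had a log2 change of 0.76 (SE 0.34, adjusted p = 0.434 in edgeR). It was weakly expressed, with means of 0.209 CPM in controls and 0.362 CPM in mutants.

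In the edgeR test across all genes, 2 of the 8, *Pex5l* and *Slc2a2*, had an adjusted p under 0.05, as did 0.190% of all tested genes. At an unadjusted p under 0.05 all 8 passed, beside 10.6% of tested genes. Of these 6 were higher, beside 6.52% of tested genes, and 2 were lower, beside 4.04%. Without overlap between groups were 4 of the 8, *Pex5l*, *Ccdc39*, *Slc7a11* and *Slc2a2*, beside 0.997% of tested genes. Because the 8 were chosen from this same contrast, nothing is read from these counts. How many of the 8 passed the adjusted threshold depended on the model and the libraries, as did the share of all tested genes, given in brackets. It was 0 of 8 without any of controls 1 to 5 or mutants 2 or 6 (0.0758% to 0.184%). With the neuron and Schwann cell scores in the model it was 0 of 8 (0.00542%), and with a mean count of at least 20, 0 of 7 (0.191%). Without control 6 (0.076%), mutant 3 (0.206%) or mutant 4 (0.359%) it was 1 of 8, and without mutant 1, 2 of 8 (0.293%). Without mutant 5 it was 3 of 8 (1.93%), and with DESeq2 8 of 8 (3.35%). With RLE scaling *Pex5l* was lost and 1 of 8 passed (0.184%). *Sox2ot* passed beside *Pex5l* and *Slc2a2* without a filter on counts, 3 of 8 (0.199%). *Sox2* passed beside *Pex5l* and *Slc2a2* with the replicate number as a block, at a log2 change of -0.44 (SE 0.08), 3 of 8 (0.71%).

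Genes around *Sox2* were counted with and without those of the 8 that lie there. Within 10 Mb of *Sox2*, an unadjusted p under 0.05 was found for 18 of 89 tested genes (20.2%), with 16 higher in mutants, beside 10.6% of all tested genes. Without the 6 members in that window it was 12 of 83 (14.5%), 11 of them higher. None of the 83 passed an adjusted p under 0.05 in edgeR, beside 0.190% of all tested genes, and 1 did with DESeq2, beside 3.35%. Their groups overlapped in every case, and 0.997% of all tested genes were without overlap. Among 83 genes these shares amount to few genes, so nothing is read from these counts. The 5 with the smallest unadjusted p were *1810062G17Rik*, *Zfp639*, *Mrpl47*, *Slc7a14* and *Mccc1*, all higher in mutants, with adjusted p between 0.129 and 0.209 in edgeR. *Slc7a14*, a cationic amino acid transporter-like gene, was at 7.57 ± 1.82 CPM in controls against 12.1 ± 4.26 CPM in mutants (SD over n = 6 each), a log2 change of 0.68 (SE 0.22). *Mrpl47*, a protein of the mitochondrial ribosome, and *Zfp639*, a zinc finger gene, had log2 changes of 0.29 (SE 0.09) and 0.28 (SE 0.08). *Mccc1*, a subunit of the mitochondrial enzyme of leucine breakdown, had 0.34 (SE 0.11), and the weakly expressed *1810062G17Rik* had 1.11 (SE 0.31). The plot of fold change against distance shows *Pex5l*, *Sox2ot*, *Slc2a2*, *D3Ertd751e* and *Pcdh10* standing above most genes around them.

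**Figure D2:**
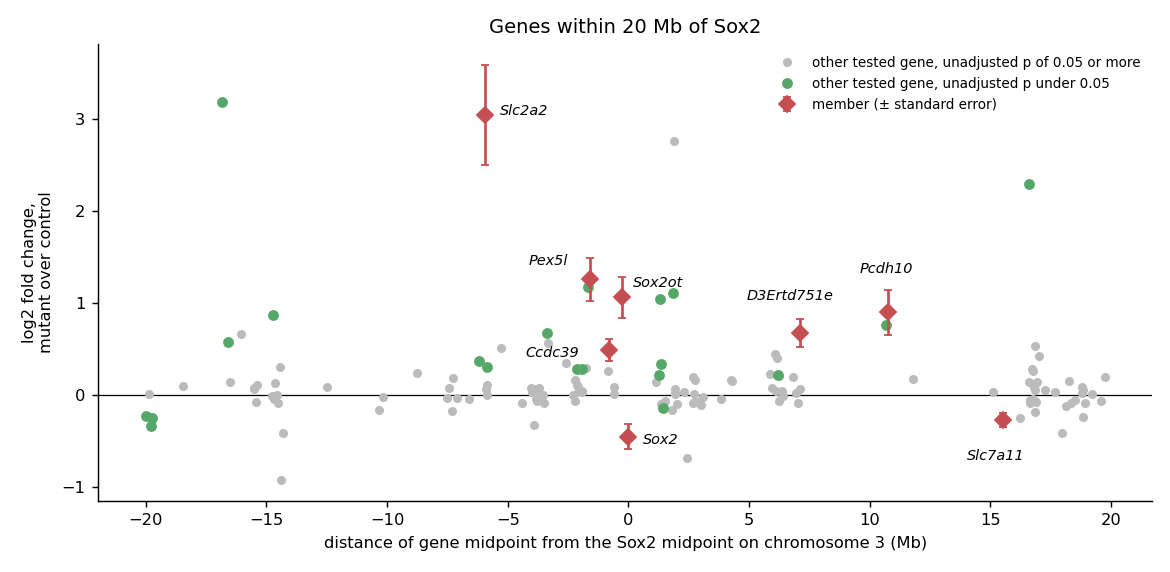
Log2 change of mutants over controls (vertical axis) of the 149 tested genes whose midpoint lies within 20 Mb of that of *Sox2*, against distance in Mb (horizontal axis). Red diamonds are the 8 genes with their standard errors, green points other genes with an unadjusted p under 0.05 and grey points the rest; *Sox2* at -0.45 lies below 0 while *Sox2ot* at 1.06 and *Pex5l* at 1.26 beside it lie above.

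The share of tested genes past the unadjusted threshold was read by distance from *Sox2*, without and with the 8 genes. Without the 8 genes, it was 16.1% of 56 genes up to 5 Mb from *Sox2*, 11.1% of 27 between 5 and 10 Mb, 13.8% of 58 between 10 and 20 Mb, 16.8% of 119 between 20 and 40 Mb, 16.8% of 411 between 40 and 80 Mb and 12.2% of 205 beyond. With the 8 genes, which were chosen for differing, the 3 nearest distances had 21.7%, 17.2% and 16.7%. All 8 lie within 20 Mb, so leaving them out lowers only these 3 shares, and no trend with distance is read from either series. Chromosome 3 as a whole had 142 of 884 genes (16.1%) past the unadjusted threshold, the highest share of 20 chromosomes, ahead of chromosome 7 with 12.6%. Without the 8 genes it was 134 of 876 (15.3%), and on all other chromosomes 1755 of 17113 (10.3%). Around the deleted gene *Jag1*, on chromosome 2, 20 of 149 genes within 10 Mb passed (13.4%), *Jag1* itself included. These shares are descriptions of genes that share libraries and, in part, regulation, and no test was made of them.

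**Figure D3:**
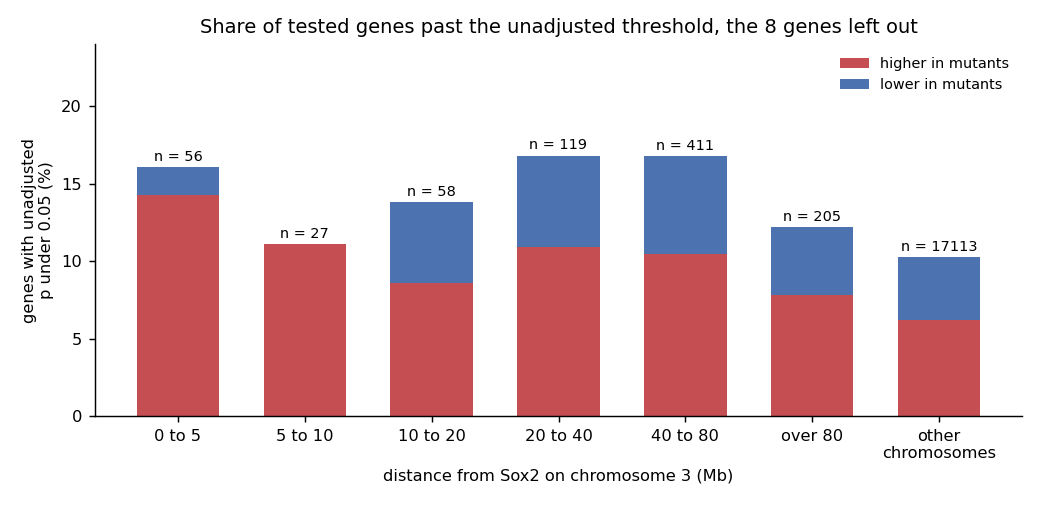
Percentage of tested genes with an unadjusted p under 0.05 (vertical axis, from 0), the 8 genes left out, by distance from *Sox2* on chromosome 3 in Mb and on all other chromosomes; red is higher and blue lower in mutants, and n is the number of genes tested. The share is 16.1% nearest to *Sox2* and 16.8% between 20 and 80 Mb, beside 10.3% on other chromosomes. The 8 genes all lie within 20 Mb, where the shares with them are 21.7%, 17.2% and 16.7% in order of distance.

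The scores of neuron and Schwann cell markers were higher in mutants, and *Sox2ot*, *Pex5l* and *Pcdh10* are known from neurons. The neuron score, the mean log2 CPM of 16 markers with a prior count of 2, was 1.74 higher in mutants (2.87 against 4.61, exact permutation test over mice, two-sided, p = 0.00866, adjusted p = 0.0216 over 5 scores, with 6 of 6 mutants above the control median). Above the highest control lay 5 of 6 mutants. Of its markers 14 of 16 were higher at an unadjusted p under 0.05 and 0 lower, beside 6.52% of all tested genes higher. At an adjusted p under 0.05 it was 0 of 16 in edgeR and 12 of 16 with DESeq2, beside 0.190% and 3.35% of all tested genes. Their summed level ran from 227 to 380 CPM in controls and from 257 to 1657 CPM in mutants, and none was at 0 in any library. The Schwann cell score was 1.49 higher (exact permutation p = 0.00649, adjusted p = 0.0216), with 4 of 6 mutants above the highest control, and its summed level was 637 to 1768 CPM in controls and 1452 to 6945 CPM in mutants. Of its markers 14 of 15 were higher at an unadjusted p under 0.05. The adjusted threshold was passed by 0 of 15 in edgeR and 13 of 15 with DESeq2, beside 0.190% and 3.35% of all tested genes. In bulk tissue, more cells of a type and more RNA per cell cannot be told apart. The paper counted spiral ganglion neurons per area at P6 and found no significant difference between mutants and controls. How much nerve each dissection kept is not given in the sources used here.

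The supporting cell score, of cells that make *Sox2*, was 0.133 lower in mutants (exact permutation p = 0.0346, adjusted p = 0.0577). Of its markers 4 of 15 were lower and 0 higher at an unadjusted p under 0.05, beside 4.04% of all tested genes lower and 6.52% higher. Their summed level was 8584 to 11005 CPM in controls and 7761 to 9632 CPM in mutants. This score passed the adjusted threshold without control 3 (a difference of -0.155), control 4 (-0.151) or mutant 6 (-0.143). Of the hair cell markers, 0 of 14 passed an unadjusted p under 0.05 in edgeR or DESeq2, beside 10.6% and 10.8% of all tested genes. The hair cell score differed by -0.019 (exact permutation p = 0.868). The mesenchyme score differed by -0.111 (exact permutation p = 0.180).

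Within genotypes, the correlations of the 8 genes with the marker scores ranged widely. Deviations of each library from its genotype mean were correlated over the 12 libraries, with p from 100000 permutations within genotypes. The choice of genes that differ may favour small deviations, but it did not use their correlation with the scores. *Pex5l* followed the neuron score (Pearson r = 0.86, adjusted p = 0.0490 over 24 pairs of a gene and a score; Spearman rho = 0.90, adjusted p = 0.00672). Without mutants 4 and 5, which lay farthest from the median of the score, r was 0.80 and its adjusted p 0.0653. The relation was of like size in each genotype, with r = 0.88 in controls and r = 0.87 in mutants. *Sox2ot* had r = 0.73 with the neuron score (permutation p = 0.00762, adjusted p = 0.0610; rho = 0.76, adjusted p = 0.0733) and *Pcdh10* had r = 0.76 (permutation p = 0.0147, adjusted p = 0.0884; rho = 0.71, adjusted p = 0.0825), neither past the adjusted threshold. Without the same mutants r was 0.65 and 0.62. For *Sox2*, *Ccdc39*, *Slc2a2* and *D3Ertd751e*, r with the neuron score lay between -0.18 and 0.05, and for *Slc7a11* it was 0.44 (adjusted p = 0.495). These near-zero values pool opposite signs. In controls and in mutants r was 0.68 and -0.59 for *D3Ertd751e* and 0.58 and -0.22 for *Ccdc39*. It was 0.26 and -0.13 for *Sox2* and -0.15 and 0.0034 for *Slc2a2*, and the difference between genotypes was not tested.

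*D3Ertd751e* instead had r = 0.83 with the supporting cell score (adjusted p = 0.0515; rho = 0.83, adjusted p = 0.0205), and r = 0.75 without control 3 and mutant 1. *Sox2* had r = 0.52 with that score (adjusted p = 0.261; rho = 0.72, adjusted p = 0.0825) and r = 0.46 without the same libraries. No gene passed the adjusted threshold with the Schwann cell score. In controls and in mutants, r with that score was 0.91 and -0.72 for *D3Ertd751e* and 0.80 and -0.48 for *Ccdc39*. For *Sox2ot* and *Pex5l* it was positive in both. *Sox2* passed with 0 of the 7 other genes, also without adjustment. Its largest r was 0.51, with *Slc7a11* (adjusted p = 0.762 over 7 pairs; rho = 0.52, adjusted p = 0.363; r = 0.40 without control 3 and mutant 3), and r with *Sox2ot*, the transcript around it, was 0.0020 (adjusted p = 0.995). The scatter of deviations against the neuron score shows the genes that rise with it over all libraries and those that do not.

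**Figure D4:**
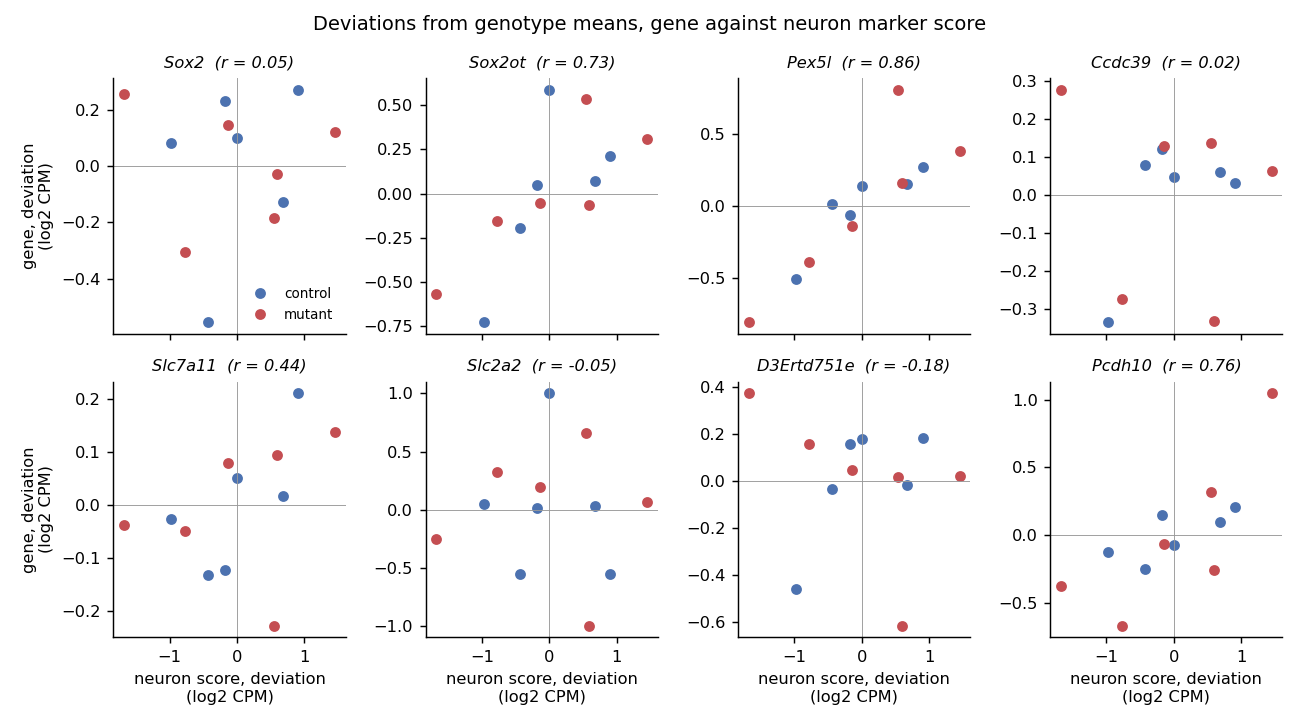
Deviation of each gene from its genotype mean (vertical axis, log2 CPM) against the deviation of the neuron marker score (horizontal axis, log2 CPM) in 6 control (blue) and 6 mutant (red) libraries, with Pearson's r over the 12. Points rise together for *Pex5l* (r = 0.86), *Pcdh10* (r = 0.76) and *Sox2ot* (r = 0.73) and scatter without order for *Sox2* (r = 0.05).

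The fold changes of the same 3 genes became smaller when the neuron and Schwann cell scores stood in the model beside genotype. *Sox2ot* went from a log2 change of 1.06 to 0.35 (SE 0.27), *Pex5l* from 1.26 to 0.30 (SE 0.21) and *Pcdh10* from 0.90 to 0.41 (SE 0.21). The other 5 kept values close to those without the scores. *Sox2* was at -0.42 (SE 0.21), *Slc7a11* at -0.35 (SE 0.11), *Ccdc39* at 0.51 (SE 0.20), *D3Ertd751e* at 0.80 (SE 0.24) and *Slc2a2* at 2.998 (SE 0.86). With the supporting cell score in their place, *Sox2* went to -0.27 (SE 0.15) and *D3Ertd751e* to 0.99 (SE 0.14), while *Sox2ot* and *Pex5l* were at 1.21 each (SE 0.28 and 0.31). The scores differ between the genotypes, so genotype and scores share part of the difference in these models, and the part of the scores in the results was not tested otherwise.

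**Figure D5:**
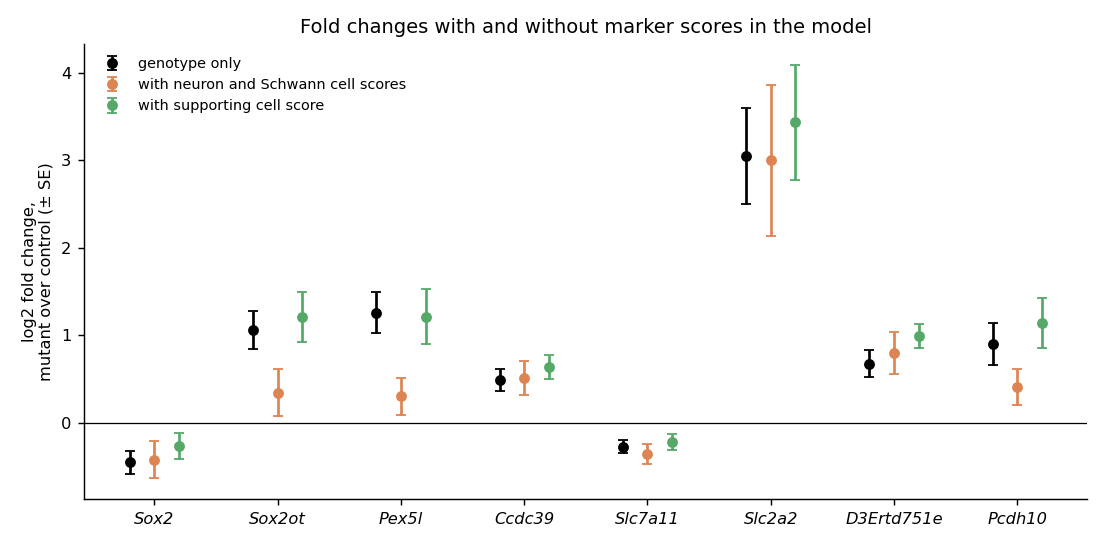
Log2 change of mutants over controls with its standard error (vertical axis) for the 8 genes, from the model with genotype only (black), with the neuron and Schwann cell scores (orange) and with the supporting cell score (green). *Sox2ot*, *Pex5l* and *Pcdh10* fall to 0.30 to 0.41 with the neuron and Schwann cell scores, and the other 5 genes stay near their values.

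The genes whose deviations were most like those of *Sox2*, among 14823 with a mean of at least 1 CPM, were *Tmed5* (r = 0.97), *Prkar2b*, *Fam98b* and *Id4* (r = 0.95 each) and *1600012H06Rik* (r = 0.95), over 12 libraries. None lies on chromosome 3, and their log2 changes between genotypes lay between -0.05 and 0.03. For *Sox2ot* they were *Abca8a* (r = 0.95), the neuronal transporter *Slc6a17* (r = 0.93), the potassium chloride cotransporter *Slc12a7* (r = 0.92), the AMPA receptor subunit *Gria2* (r = 0.90) and *Csgalnact1* (r = 0.90). *Slc6a17* and *Gria2* lie on chromosome 3, but far from *Sox2*, at 72.8 and 46.1 Mb. *Pex5l* ranked 26th of 14823 in likeness to *Sox2ot* (r = 0.85), and *Sox2* ranked 7423rd. The highest of 14823 values of r over 12 libraries are large also by chance. No test was made of these r, and no shared regulation is read from them.

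Among relatives of *Sox2*, 4 of 16 tested SOX genes passed an unadjusted p under 0.05, *Sox2* included (3 of 15 without it, beside 10.6% of all tested genes). The adjusted threshold was passed by 0 in edgeR and 4 with DESeq2, *Sox2* included, beside 0.190% and 3.35% of all tested genes. *Sox21*, a SOXB gene active in the same sensory domain, was at 12.04 ± 1.39 CPM in controls against 8.79 ± 0.921 CPM in mutants (SD over n = 6 each), a log2 change of -0.45 (SE 0.10, adjusted p = 0.0783 in edgeR), the same size as for *Sox2*. *Sox13* had -0.19 (SE 0.06, adjusted p = 0.159), and *Sox3*, at 0.0941 CPM in controls against 0.409 CPM in mutants, had 2.07 (SE 0.44, adjusted p = 0.0738). The median over the 16 was -0.04, beside 0.00 over all tested genes.

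Of 21 tested prosensory factors and partners of SOX2, 3 were higher and 2 lower at an unadjusted p under 0.05 (23.8%, beside 10.6% of all tested genes). *Hey1*, a Notch-induced repressor, fell from 52.3 ± 4.81 to 31.4 ± 3.81 CPM (SD over n = 6 each), a log2 change of -0.74 (SE 0.09, adjusted p = 0.00204 in edgeR). The other named members did not pass the adjusted threshold. The POU factor *Pou3f2*, which binds octamer sequences beside SOX2, had 1.71 (SE 0.38, adjusted p = 0.0843), *Hes5* had -1.36 (SE 0.34, adjusted p = 0.0958) from 2 to 22 counts per library, and *Lin28b* had 0.80 (SE 0.23, adjusted p = 0.132).

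Partners of the flanking genes were read from lists of their pathways. Of 25 tested genes of motile cilia, 3 were higher and 0 lower at an unadjusted p under 0.05, *Ccdc39* included. Without *Ccdc39* it was 2 of 24 (8.33%), near the 10.6% of all tested genes. *Dnah9*, an outer arm dynein heavy chain, rose from 1.06 ± 0.174 to 2.25 ± 0.588 CPM (SD over n = 6 each), a log2 change of 1.09 (SE 0.19, adjusted p = 0.0429 in edgeR). That call was lost, with values from 1.02 to 1.14, when any of controls 2 to 6 or mutants 2, 3 or 6 was left out. *Dnaic2* had 0.66 (SE 0.22, adjusted p = 0.205), and the median of the list was 0.02.

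Among the HCN channel and PEX5 family genes, *Hcn3* had a log2 change of 0.85 (SE 0.28, adjusted p = 0.202 in edgeR), which turned to -0.05 with the neuron and Schwann cell scores in the model.

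Of 22 genes of cystine uptake and glutathione metabolism, 2 were higher and 1, *Slc7a11*, lower at an unadjusted p under 0.05. Without *Slc7a11* it was 2 of 21 (9.52%), again near the 10.6% of all tested genes. *Asns*, the asparagine synthetase induced by amino acid shortage, had a log2 change of 0.59 (SE 0.18, adjusted p = 0.154 in edgeR), and the glutamate transporter *Slc1a1* had 0.58 (SE 0.20, adjusted p = 0.250). The median was -0.01. Among 11 facilitative glucose transporters, 3 were higher, *Slc2a2* included, and 1 was lower. Without *Slc2a2* this left 3 of 10 (30%), beside 10.6% of all tested genes. The neuronal *Slc2a3* had 0.75 (SE 0.22), *Slc2a6* had 1.39 (SE 0.43) and *Slc2a9* had -0.31 (SE 0.11), with adjusted p from 0.135 to 0.245 in edgeR. The median was -0.01. Of 10 delta protocadherins, *Pcdh10* was higher and *Pcdh1*, with -0.13 (SE 0.05, adjusted p = 0.377), lower. Without *Pcdh10* this left 1 of 9 (11.1%), near the 10.6% of all tested genes, and the median was 0.01.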

How the data were processed

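Cochleae of 6 control and 6 mutant mice at P6 were profiled by single-end RNA-seq. The values are raw counts as the authors deposited them, a column for each library and a row for each gene symbol, made per the labels with Trimmomatic 0.32, STAR 2.4.2a and HTSeq 0.9.1 on GRCm38.p4; strand settings and annotation are not given in the sources used here. A deposited table of the authors' own DESeq2 1.10.1 comparison, with fold changes and p-values, was not used.

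Mutants were compared with controls in edgeR 4.0.16 (R 4.3.3; quasi-likelihood test) over the 18459 genes whose counts averaged 5 or more, with TMM scaling, robust estimation, no covariates and Benjamini-Hochberg adjustment over all tested genes; the test was checked on simulated data. Positions come from GENCODE M21 (GRCm38), where 97.5% of tested genes were found, 640 of all symbols by an older name. Marker scores were compared by exact permutation over 924 arrangements (smallest p 0.00216). At 28498549 counts or more per library, counting error limits *Slc2a2*, *Hes5*, *Sox3*, *1810062G17Rik*, *Gm37459* and *2610316D01Rik*.

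The 8 genes, the gene lists and the tests were chosen with earlier results of these data known. Named beside the 8 were *Jag1*, the 5 non-members within 10 Mb with the smallest unadjusted p, the 5 genes most like *Sox2* and *Sox2ot*, and in each list up to 4 genes with the smallest unadjusted p under 0.05. *Ttc14*, *Gm37459*, *Sclt1*, *2610316D01Rik*, *Myo6* and *Gjb2* were chosen after their values were seen. A gene that this rule names, and the counts of its list, are not reported here. Alternatives were DESeq2 1.42.0, RLE scaling, other filters, the replicate number as a block, marker scores as covariates and leaving out each library. The supporting cell score as a covariate and the window and distances without the 8 genes were added after the data were examined.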

Additional observations from a re-analysis of the deposited data

Results flagged for a closer look

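Of 26 sets of 6 libraries, the levels of the 8 genes and the 5 marker scores in each genotype, 2 held a library set apart from the others of its genotype by a gap, relative to the group's range, above Dixon's 95% limit. Chance does this in about 5% of sets. *Ccdc39* was at 4.58 CPM in control 4, the lowest of the controls, and its log2 fold change was 0.43 without that library. *Slc2a2* was at 0.116 CPM in control 6, from 4 counts, the highest of the controls, and its log2 fold change was 3.86 without that library.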

How the results depend on the processing

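Of the 151 values of the 8 log2 fold changes under the alternatives, 146 moved by less than 1 SD between replicates and 0 changed sign. The 5 that moved more were *Sox2ot* (0.35), *Pex5l* (0.30) and *Pcdh10* (0.41) with the neuron and Schwann cell scores, *D3Ertd751e* (0.99) with the supporting cell score, and *Slc2a2* without control 6 (3.86). *Slc2a2* could not be fitted with a mean count of at least 20. The number of genes with an adjusted p under 0.05, 35 in edgeR, was 619 with DESeq2, 57 without a filter, 1 with the neuron and Schwann cell scores, and 14 to 356 without 1 library. It was 14 without control 2 or 6, 15 without control 5 or mutant 6, 17 without control 4 or mutant 2, 22 without control 3, 54 without mutant 1, 66 without mutant 4 and 356 without mutant 5. The count of 18 within 10 Mb of *Sox2* includes the genes of the 8 that lie there, as do its alternatives. Within 20 Mb it was 28 of 149 (18.8%), and 20 of 141 (14.2%) with the 8 left out. Without 1 library it was 16 to 22, where 8.39% to 14.2% of all tested genes passed. With the neuron and Schwann cell scores it was 7 of 89 (7.87%), where 2.90% of all tested genes passed. Of the 8 genes, 4 passed the unadjusted threshold in this fit, and the window was not counted there without them. In that fit *Hcn3* was at -0.045, and the adjusted p was 0.0750 for *Jag1* and 0.220 for *Hey1*. The supporting cell score difference lay between -0.155 and -0.0917 without 1 library, and the hair cell score difference was -0.090 to 0.064 and turned positive without control 3 (0.0016) and mutant 1 (0.064). The count of 1 pair of a gene and a score past the adjusted threshold was 2 with RLE scaling, *D3Ertd751e* with the supporting cell score being the other, and 0 without the 2 libraries farthest along the score.

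Over all genes, mice with the same replicate number did not deviate together (correlations of -0.187 to 0.272). This measure over all genes cannot decide on single genes. *Sox2* was lowest in replicate 3 of both genotypes, at 22.7 CPM in control 3 and 19.9 CPM in mutant 3. Its SE was 0.13 without the replicate block and 0.08 with it, and a pairing of the mice was not tested otherwise. With the replicate block, 131 genes were called, 26 of the 35 among them, *Dnah9* not (adjusted p = 0.0556) and *Sox2* newly called. Within 10 Mb of *Sox2*, 17 of 89 passed the unadjusted threshold, genes of the 8 included, beside 9.13% of all tested genes. The cause of these changes was not tested. Depth limits *Slc2a2*, *Hes5* and *Sox3*, with 22 counts or fewer in every library. It also limits *1810062G17Rik*, *Gm37459* and *2610316D01Rik*, with group means from 0.195 to 0.446 CPM.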
